A study of Rattus norvegicus with 9 samples.

Results

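Expression of 38 genes of the unfolded protein response and of the response to amino acid shortage was followed in Schwann cells, the glia that ensheathe axons of peripheral nerve, taken as primary cells from rat sciatic nerve. The genes were listed by function. Of the 38, 17 encode chaperones, oxidoreductases and quality control factors of the endoplasmic reticulum (ER), 4 are the sensors of ER stress together with the transcription factor Xbp1, and 17 make up the arm under the transcription factor ATF4, with the enzymes of serine and one-carbon synthesis. A gene counted as measured where a probe set was annotated to it alone, and the probe set with the highest mean was used. By that rule 37 of the 38 genes were measured, of 14213 genes in all, and Ern1, the IRE1 sensor, was not analysed here.

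The 9 arrays fall into 3 groups of 3, all of them Schwann cells transfected transiently with RNAi oligonucleotides and lysed for RNA at 48 hours. The NF1 RNAi + U0126 group received oligonucleotides against Nf1 and the MEK inhibitor U0126 (written UO126 in the labels). The NF1 RNAi group received the same oligonucleotides without the inhibitor, and the Control RNAi group received scrambled oligonucleotides. Nf1 encodes neurofibromin, which switches off Ras upstream of the kinase MEK. Control RNAi cells given U0126 were not analysed here, so the inhibitor was compared only on a background of Nf1 knockdown. Neither the oligonucleotide sequences nor the dose of U0126 were known here.

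When unfolded proteins build up in the ER, the sensors PERK (Eif2ak3), IRE1 (Ern1) and ATF6 (Atf6) signal to the nucleus, and ATF6 and XBP1 drive the genes for chaperones and for ER-associated degradation. PERK, and the kinase GCN2 when amino acids run short, slow translation in general but favour translation of the Atf4 message, and ATF4 drives genes for amino acid synthesis, amino acid uptake and tRNA charging. Schwann cells that myelinate make large amounts of secretory and membrane protein, and the response is known from inherited neuropathies caused by misfolded myelin proteins.

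The promoter stretches of the members that hold a known control element of these responses are printed here, to show where an exact match was found. The 300 bases around each gene start (250 before and 50 after, RefSeq, assembly GRCr8) were available for 32 of the 38 genes, the others being Pdia3, Pdia6, Manf, Atf6, Ern1 and Aldh18a1. They were searched on both strands for the ER stress element (CCAAT, any 9 bases, CCACG), the unfolded protein response element TGACGTGG and the C/EBP-ATF response element core TGATGNAA. These motifs were first described in genes of this kind, so the counts only describe the promoters. A gene without an exact match in this window may still carry the element elsewhere or in a variant form. The ER stress element was present in 6 of 14 promoters of the ER folding genes (42.9%), in that of Xbp1, and in 0 of 16 promoters of the ATF4 arm, against 21 of 27457 promoters of the whole table (0.0765%) and 17 of 11736 promoters of measured genes (0.145%). Capitals mark the ER stress element, read on the gene's strand, where a match on the opposite strand begins with CGTGG. Hsp90b1 has a match at each end of the stretch printed.
Hspa5, chr3:38452958-38453006, plus strand: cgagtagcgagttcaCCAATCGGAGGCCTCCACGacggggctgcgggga
Hsp90b1, chr7:23012332-23012484, minus strand: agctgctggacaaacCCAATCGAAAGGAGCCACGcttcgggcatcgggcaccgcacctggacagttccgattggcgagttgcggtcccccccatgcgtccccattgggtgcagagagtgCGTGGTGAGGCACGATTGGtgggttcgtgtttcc
Calr, chr19:40213120-40213168, plus strand: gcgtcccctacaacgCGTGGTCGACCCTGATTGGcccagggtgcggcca
Canx, chr10:35158054-35158102, minus strand: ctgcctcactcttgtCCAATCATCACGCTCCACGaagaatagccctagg
Dnajc3, chr15:102432519-102432567, plus strand: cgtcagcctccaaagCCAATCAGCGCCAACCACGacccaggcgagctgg
Creld2, chr7:121789224-121789272, plus strand: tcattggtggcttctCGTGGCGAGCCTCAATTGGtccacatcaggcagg
Xbp1, chr14:84604543-84604591, plus strand: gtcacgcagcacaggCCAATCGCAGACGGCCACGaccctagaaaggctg

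The unfolded protein response element was found in 1 of the 14 ER folding promoters, that of Hyou1, in 175 of the 27457 promoters of the table (0.637%) and in 98 of 11736 promoters of measured genes (0.835%). The C/EBP-ATF core was found in 2 of the 16 promoters of the ATF4 arm (12.5%), those of Trib3 and Chac1, in 1 of the 14 ER folding promoters, that of Herpud1, in 1048 promoters of the table (3.82%) and in 259 of 11736 promoters of measured genes (2.21%). Capitals mark the unfolded protein response element in Hyou1 and the C/EBP-ATF core in the other sequences, where it lies on the opposite strand and ends in CATCA.
Hyou1, chr8:53602676-53602713, plus strand: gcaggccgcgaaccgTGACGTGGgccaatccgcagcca
Herpud1, chr19:10614869-10614906, minus strand: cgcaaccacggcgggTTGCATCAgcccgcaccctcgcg
Trib3, chr3:161275534-161275569, minus strand: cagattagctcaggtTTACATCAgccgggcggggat
Chac1, chr3:126795949-126795986, plus strand: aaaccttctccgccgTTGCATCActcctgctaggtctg

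The values are the authors' normalized intensities on a linear scale, and the precision is limited by the 3 arrays per group. Differences are on the log2(value + 1) scale, given with the standard error (SE) of limma's fit over all 9 arrays, and a gene was called at an adjusted p under 0.05 (Benjamini-Hochberg over 14213 genes). Nf1 itself had 42.5, 51.7 and 40.9 units with NF1 RNAi + U0126 and 41.1, 41.5 and 42.4 with NF1 RNAi, against 99.3, 95.6 and 70.0 with Control RNAi. Nf1 was measured 2.07-fold lower in NF1 RNAi cells (log2 difference −1.05 ± 0.13, adjusted p = 0.000695) and 1.93-fold lower with U0126 added (−0.95 ± 0.13, adjusted p = 0.000662). Its mean was under log2 6 in both knockdown groups, at 5.52 with NF1 RNAi + U0126 and 5.41 with NF1 RNAi, against 6.46 with Control RNAi, so the probe set was dim there and these folds need not give the full extent of the knockdown. The Schwann cell markers S100b, Sox10, Ngfr, Erbb3 and Gfap were measured, and all 5 were at log2 6 or more in at least 1 array. Fibroblast markers were at log2 6 or more for 5 of 9 genes, with a summed intensity of 21293 to 29641 units with NF1 RNAi + U0126, 29935 to 30882 with NF1 RNAi and 36863 to 38731 with Control RNAi, while Pdgfra, Dcn, Lum and Dpt stayed under log2 6 on all arrays. Macrophage and leukocyte, endothelial and mural, and neuron markers stayed under log2 6 on all arrays for 7 of 10, 5 of 6 and 3 of 7 genes. Neuron marker sums were 4107 to 4799 units with NF1 RNAi + U0126, 1349 to 2477 with NF1 RNAi and 5053 to 8827 with Control RNAi, macrophage and leukocyte sums were 563 to 622, 524 to 539 and 454 to 506 in the same order, endothelial and mural sums were 363 to 481, 373 to 386 and 417 to 556, and Schwann sums were 25712 to 26295, 28909 to 29429 and 17910 to 23243. Such sums follow the brightest genes, for Schwann cells S100b and Ngfr. In NF1 RNAi + U0126 against Control RNAi cells the median Schwann marker difference was −0.22, with 2 of 5 called lower and 1 higher. Over all genes 17.6% were lower and 17.9% higher. In NF1 RNAi against Control RNAi cells 3 of 7 neuron markers fell and 1 rose, with a median of −0.01. There 13.3% of all genes fell and 13.0% rose. In RNA from whole cultures, fewer cells of a type and less RNA per cell cannot be told apart, and the part of other cells in the results was not tested.

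The replicate 1 arrays stood apart from replicates 2 and 3. The SD of the log2 difference between 2 arrays over all genes was 0.235 and 0.268 between replicate 1 and the others with NF1 RNAi + U0126, 0.208 and 0.248 with NF1 RNAi and 0.323 and 0.368 with Control RNAi, against 0.144 to 0.160 between replicates 2 and 3. This touched the ER genes in all 3 groups, since replicate 1 exceeded the mean of the other replicates in 16 of 17 ER folding genes with NF1 RNAi + U0126, in 15 with NF1 RNAi and in 15 with Control RNAi, by a median of 0.43, 0.19 and 0.44 log2 units. In the ATF4 arm it exceeded them in 13, 5 and 12 of 17 genes. Mitosis genes moved with it, as their median in the Control RNAi replicate 1 array was 2.97 log2 units above the mean of all arrays, against 0.65 and 0.70 in the other Control RNAi arrays. The replicate 1 arrays of the 3 groups deviated together, whereas replicates 2 and 3 were about as alike across numbers as within them. Values from the fit with the replicate number as a block are given beside each result whose call it changed.

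**Figure D1:**
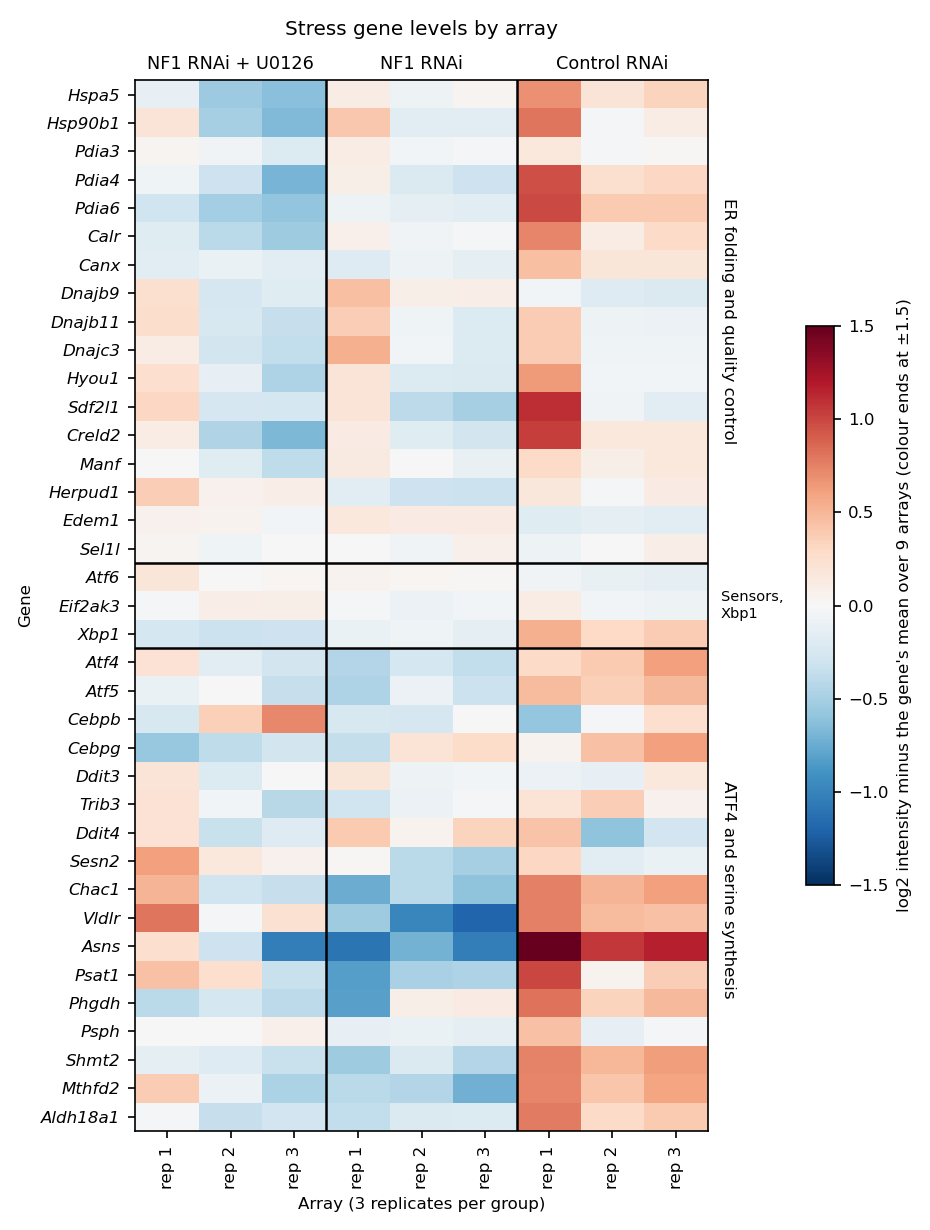
Colour gives the log2 intensity of each of the 37 measured genes (rows) in each of the 9 arrays (columns), minus the gene's mean over the 9 arrays, with red for higher and blue for lower. The ATF4 arm genes from Chac1 to Aldh18a1, other than Psph, were red in the 3 Control RNAi arrays, except that Psat1 was near its mean in replicate 2. Most ER folding genes were reddest in the replicate 1 array of the Control RNAi group.

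Knockdown of Nf1 was accompanied by lower expression of the ATF4 and serine synthesis genes. In NF1 RNAi against Control RNAi cells, 10 of these 17 genes fell and none rose, with a median log2 difference of −0.74. By the same test 13.3% of all 14213 genes fell and 13.0% rose (26.3% called in either direction), and the median over all genes was 0.02. The groups did not overlap in 11 of the 17 genes, all of them lower in NF1 RNAi cells, where 20.0% of all genes had non-overlapping groups in that direction. Of the 37 measured genes together, 14 fell and 1 rose, with a median of −0.35, and with the replicate block 21 fell and 3 rose. Calls over all genes rose with the block too, so the 26.3% belongs to the fit without it.

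Asns encodes asparagine synthetase, a classic target of ATF4, and had the largest difference of the 37 genes. Its intensity was 140, 183 and 146 units in the NF1 RNAi arrays, against 991, 626 and 674 units in the Control RNAi arrays. Every NF1 RNAi array lay far below every Control RNAi array, and the difference was 4.79-fold (log2 difference −2.26 ± 0.30, adjusted p = 0.000862). Vldlr, a lipoprotein receptor known as a target of PERK and ATF4, had 451, 330 and 286 units in NF1 RNAi cells, against 1107, 911 and 884 in Control RNAi cells. It fell 2.75-fold (−1.46 ± 0.22, adjusted p = 0.00175), and its 3 other probe sets gave −1.47, −1.31 and −1.53. Chac1, which degrades glutathione and carries the C/EBP-ATF core printed above, had 155, 196 and 171 units in NF1 RNAi cells, against 442, 371 and 401 in Control RNAi cells. The groups were well separated, and the difference was 2.32-fold (−1.22 ± 0.21, adjusted p = 0.00304).

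The serine and one-carbon enzymes were lower at most steps. Phgdh, Psat1 and Psph make serine from a glycolytic intermediate in that order, and Shmt2 and Mthfd2 use it to feed the mitochondrial one-carbon pathway. Shmt2 was at 304, 379 and 325 units in NF1 RNAi cells, against 736, 622 and 679 in Control RNAi cells. That 2.02-fold fall was the most precise of the arm (−1.02 ± 0.10, adjusted p = 0.000165). Mthfd2 had 197, 191 and 158 units in NF1 RNAi cells, against 433, 347 and 391 in Control RNAi cells, a 2.14-fold fall (−1.10 ± 0.19, adjusted p = 0.00348). Psat1 had 315, 398 and 405 units in NF1 RNAi cells, against 1123, 577 and 719 in Control RNAi cells. The groups did not overlap, although the Control RNAi arrays were spread widely, and the fall was 2.09-fold (−1.06 ± 0.26, adjusted p = 0.016, and 0.0594 without the NF1 RNAi replicate 1 array).

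Phgdh catalyses the first step of serine synthesis. It had 595, 1111 and 1141 units in NF1 RNAi cells, against 1841, 1315 and 1468 in Control RNAi cells. All NF1 RNAi arrays were below all Control RNAi arrays, but replicate 1 was the lowest array of its group in one and the highest in the other. The call (−0.74 ± 0.23, adjusted p = 0.044) was near the threshold and did not hold with the replicate block (adjusted p = 0.0524), with only the 2 groups in the fit (adjusted p = 0.095) or with an intensity trend (adjusted p = 0.0559), and it was lost on leaving out any 1 of 7 of the 9 arrays, NF1 RNAi replicates 2 and 3 being the exceptions (adjusted p up to 0.114). Psph, the last enzyme of the path, was not called, with 392, 399 and 387 units in NF1 RNAi cells, against 583, 394 and 418 in Control RNAi cells (−0.22 ± 0.13, adjusted p = 0.254). Only the replicate 1 array of Control RNAi stood clear of the others. Aldh18a1, which starts proline synthesis from glutamate, had 495, 551 and 553 units in NF1 RNAi cells, against 1097, 782 and 840 in Control RNAi cells, and fell 1.68-fold (−0.75 ± 0.13, adjusted p = 0.0034).

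Among the transcription factors of this arm, Atf4 and Atf5 fell. Atf4 had 1877, 2109 and 1966 units in NF1 RNAi cells, against 3101, 3327 and 3896 in Control RNAi cells. The NF1 RNAi arrays were close together and all below the Control RNAi arrays, by 1.73-fold (−0.79 ± 0.13, adjusted p = 0.00277). Atf5, a related bZIP factor, had 377, 489 and 416 units in NF1 RNAi cells, against 723, 665 and 731 in Control RNAi cells (−0.73 ± 0.12, adjusted p = 0.00197). Ddit3, which encodes CHOP, the factor linked to cell death in prolonged stress, was not called. It had 342, 285 and 291 units in NF1 RNAi cells, against 282, 276 and 334 in Control RNAi cells, and these values overlapped (0.04 ± 0.12, adjusted p = 0.851). Cebpb, a C/EBP factor that partners ATF4, ranged from 141 to 168 units in NF1 RNAi cells and from 112 to 201 in Control RNAi cells (−0.05 ± 0.26, adjusted p = 0.928).

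The remaining genes of this arm were not called without the block. Cebpg, another partner of ATF4, differed by −0.33 ± 0.19 (adjusted p = 0.251), and by the same size with an adjusted p = 0.0191 with the replicate block. Sesn2, which restrains mTORC1 when leucine is short, differed by −0.31 ± 0.19 (adjusted p = 0.283, and 0.00531 with the block). Ddit4, another brake on mTORC1, differed the other way, by 0.41 ± 0.25 (adjusted p = 0.272, and 0.0475 with the block). Its Control RNAi values were 569, 278 and 344 units, and without the replicate 1 array of that group the difference was 0.71 with an adjusted p = 0.0185. Trib3, a pseudokinase induced by ATF4 and CHOP, had 99.95, 116 and 121 units in NF1 RNAi cells, against 142, 159 and 129 in Control RNAi cells (−0.35 ± 0.15, adjusted p = 0.14). Its groups did not overlap, and its 2 other probe sets, tested among all probe sets, were lower by −0.66 and −0.96 with adjusted p = 0.0326 and 0.0116, while the mean of its probe sets gave −0.65 (adjusted p = 0.0213).

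**Figure D2:**
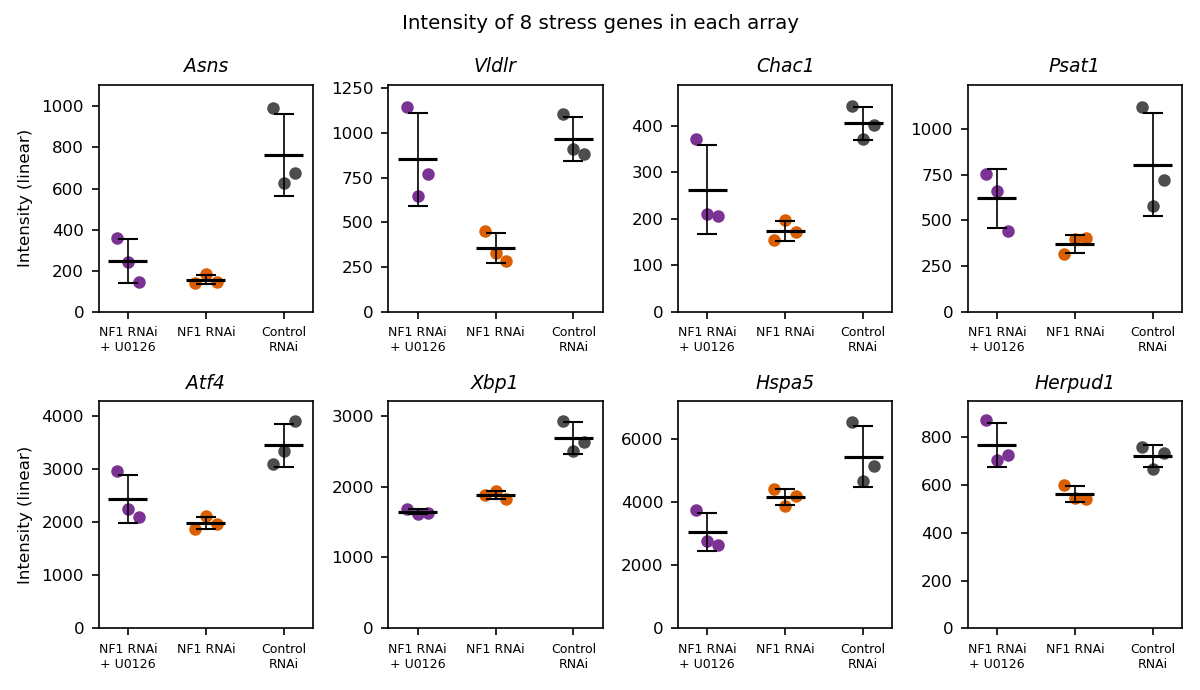
Points give the linear intensity of 8 genes in each array, horizontal bars the mean and vertical bars ± SD (n = 3 per group). Asns, Vldlr, Chac1, Psat1, Atf4 and Herpud1 had their lowest mean in NF1 RNAi cells, and Xbp1 and Hspa5 had theirs with U0126 added.

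The ER folding genes had smaller differences, in both directions. In NF1 RNAi against Control RNAi cells, 3 of the 17 fell and 1 rose, with a median log2 difference of −0.28. In limma's fit 8 of them had an unadjusted p under 0.05, as did 5207 of all 14213 genes. The count of calls is near the share called over all genes (26.3%). With the replicate block 9 fell and 2 rose, and 9 changed (7 fell and 2 rose) when the replicate 1 array of each group was left out. The 26.3% belongs to the main fit only, since calls over all genes rose with the block too, to the counts given with the alternatives at the end. No share over all genes is given without replicate 1, so the 9 changes there are not read against one. The groups did not overlap in 9 of the 17 genes, 7 lower and 2 higher, where 41.2% of all genes had non-overlapping groups (21.2% higher and 20.0% lower).

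Pdia6, a protein disulfide isomerase that forms and reshuffles disulfide bonds, fell most. It had 2823, 2712 and 2661 units in NF1 RNAi cells, against 5878, 3893 and 3902 in Control RNAi cells. The groups were clear of each other, by 1.64-fold (−0.71 ± 0.15, adjusted p = 0.00885). Canx encodes calnexin, the membrane chaperone of glycoproteins. It had 3049, 3300 and 3175 units in NF1 RNAi cells, against 4789, 3963 and 3943 in Control RNAi cells (−0.41 ± 0.08, adjusted p = 0.00614). Its other probe sets gave −0.17 and −0.21 and were not called (adjusted p = 0.217 and 0.0577 among all probe sets). Herpud1, an ER membrane protein of the degradation machinery, had 602, 546 and 541 units in NF1 RNAi cells, against 758, 669 and 733 in Control RNAi cells (−0.35 ± 0.09, adjusted p = 0.0224). It lost its call without the NF1 RNAi replicate 2 or 3 array or the Control RNAi replicate 1 or 3 array (adjusted p up to 0.0753). Edem1, which picks misfolded glycoproteins for degradation, was the one gene called higher. It had 1826, 1784 and 1777 units in NF1 RNAi cells, against 1441, 1476 and 1453 in Control RNAi cells, and these tight groups differed by 0.30 ± 0.05 (adjusted p = 0.00318), with 0.31 and 0.15 from its other probe sets.

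The main ER chaperone, BiP, is encoded by Hspa5. It had 4404, 3881 and 4207 units in NF1 RNAi cells, against 6536, 4658 and 5156 in Control RNAi cells. All NF1 RNAi arrays were below all Control RNAi arrays, but the difference did not pass the threshold without the replicate block (−0.38 ± 0.15, adjusted p = 0.11, and 0.015 with the block). Calr, the soluble glycoprotein chaperone calreticulin, had 2831, 2592 and 2644 units in NF1 RNAi cells, against 4467, 2904 and 3274 in Control RNAi cells (−0.38 ± 0.15, adjusted p = 0.103, and 0.024 with the block). Hsp90b1, the ER form of HSP90, had 5186, 3463 and 3492 units in NF1 RNAi cells, against 6808, 3871 and 4234 in Control RNAi cells. Here the replicate 1 arrays were the highest of both groups and the groups overlapped (−0.28 ± 0.28, adjusted p = 0.535, and 0.0286 with the block).

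A further 4 ER genes passed the threshold with the block and not without it. Pdia4, another disulfide isomerase, had 1075, 868 and 816 units in NF1 RNAi cells, against 1973, 1192 and 1254 in Control RNAi cells (−0.65 ± 0.22, adjusted p = 0.0579, and 0.0031 with the block). Creld2, an ER protein with disulfide isomerase activity, differed by −0.56 ± 0.27 (adjusted p = 0.165, and 0.007 with the block), and Sdf2l1, a partner of BiP and its co-chaperones, by −0.53 ± 0.34 (adjusted p = 0.3, and 0.0206 with the block). Both had their highest value in the replicate 1 array of Control RNAi, at 1127 and 936 units, while the other 2 Control RNAi arrays had 613 and 614 units for Creld2 and 417 and 390 for Sdf2l1. Dnajb9, a BiP co-chaperone that also restrains IRE1, was on the higher side, with 2400, 1864 and 1883 units in NF1 RNAi cells, against 1702, 1531 and 1510 in Control RNAi cells (0.37 ± 0.14, adjusted p = 0.0964, and 0.00776 with the block).

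The other 6 ER genes were called neither way with or without the block in this comparison. They are Pdia3, the disulfide isomerase that works with calnexin, the BiP co-chaperones Dnajb11 and Dnajc3, the nucleotide exchange factor Hyou1, the secreted ER protein Manf, and Sel1l, the adaptor of the HRD1 ubiquitin ligase. Their differences were −0.04 ± 0.08 for Pdia3, −0.04 ± 0.20 for Dnajb11, 0.01 ± 0.21 for Dnajc3, −0.27 ± 0.23 for Hyou1, −0.17 ± 0.11 for Manf and within 0.01 of 0 for Sel1l, with adjusted p-values of 0.318 to 0.995. For Pdia3 the probe sets disagreed, as its other probe set gave −0.70 (adjusted p = 0.00381 among all probe sets), and the mean of both was called at −0.37 (adjusted p = 0.0192).

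Of the sensors and Xbp1, 1 of the 3 measured genes fell, where 13.3% of all genes fell (26.3% called in either direction). Xbp1 had 1880, 1937 and 1825 units in NF1 RNAi cells, against 2932, 2497 and 2625 in Control RNAi cells. It fell 1.42-fold with no overlap (−0.51 ± 0.07, adjusted p = 0.000892). These values are for the Xbp1 message as a whole, and its splicing by IRE1 was not measured. Atf6 had 2248, 2207 and 2182 units in NF1 RNAi cells, against 2084, 1994 and 1958 in Control RNAi cells, which did not overlap but were not called (0.14 ± 0.06, adjusted p = 0.153). Eif2ak3, the PERK kinase, had 246, 237 and 245 units in NF1 RNAi cells, against 271, 244 and 239 in Control RNAi cells, and these overlapped (−0.05 ± 0.07, adjusted p = 0.669).

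**Figure D3:**
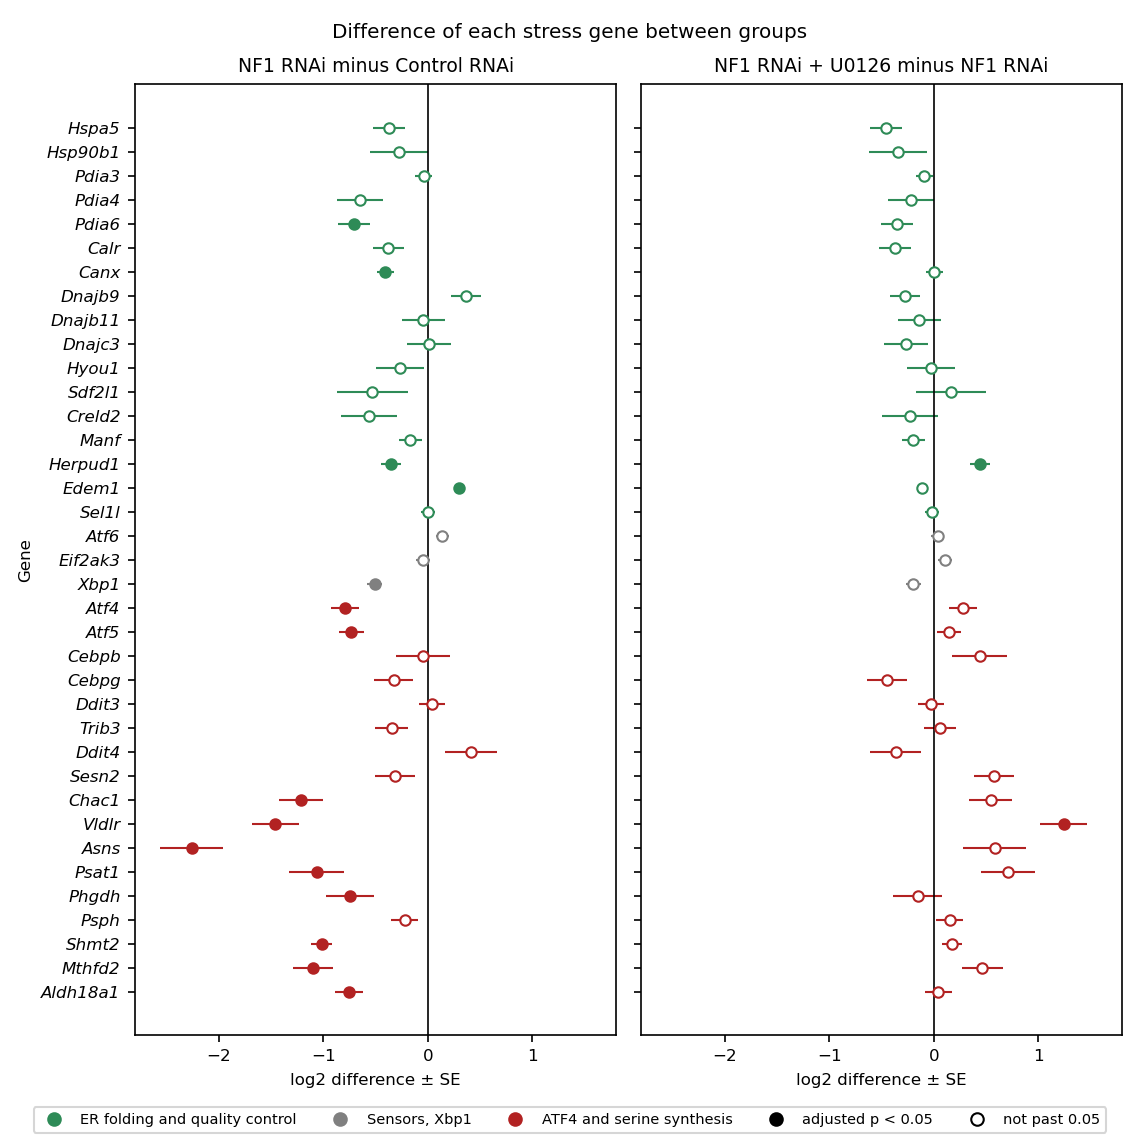
Points give the log2 difference of each gene for NF1 RNAi minus Control RNAi (left) and NF1 RNAi + U0126 minus NF1 RNAi (right), bars ± SE of limma's fit, and filled points an adjusted p under 0.05. On the left 14 filled points lie below 0 and 1 above it, and on the right the filled points are Herpud1 and Vldlr, both above 0.

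Inhibition of MEK in knockdown cells moved few of these genes past the threshold. In NF1 RNAi + U0126 against NF1 RNAi cells, Vldlr and Herpud1 rose and none of the 37 genes fell. In limma's fit 11 of them had an unadjusted p under 0.05, as did 3870 of all 14213 genes. Over all genes 13.7% were called, 6.71% higher and 7.02% lower, so the members' count of calls is below that share. With the replicate block 3 rose and 6 fell, and without the replicate 1 array of each group 4 rose and 9 fell, so the count of calls depends on how replicate 1 is treated. Calls over all genes rose with the block too, so the 13.7% belongs to the main fit only. The counts over all genes with the block are given with the alternatives at the end. Without replicate 1 no share over all genes is given, so the 4 and 9 there are not read against one. Leaving out the Control RNAi replicate 1 array alone gave 8 calls, Vldlr, Herpud1, Sesn2 and Psat1 higher and Hspa5, Pdia6, Calr and Xbp1 lower. Calls over all genes moved too, from 1110 to 2587 depending on which single array was left out, so those 8 are not set against the 13.7%. The median difference was 0.17 in the ATF4 arm, −0.20 in the ER folding genes and 0.02 over all genes. These differences share the NF1 RNAi arrays with the comparison above, and the medians of the arms are given as descriptions.

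Vldlr had 1143, 647 and 768 units with NF1 RNAi + U0126, against 451, 330 and 286 units with NF1 RNAi. The groups were well apart, at 2.37-fold (1.24 ± 0.22, adjusted p = 0.00701), and its 3 other probe sets gave 1.26, 1.10 and 0.73. Herpud1 had 873, 704 and 724 units with NF1 RNAi + U0126, against 602, 546 and 541 with NF1 RNAi (0.44 ± 0.09, adjusted p = 0.0151). Its groups did not overlap, but the call was lost without the NF1 RNAi replicate 2 or replicate 3 array (adjusted p = 0.0633 and 0.0567). Sesn2 had 994, 724 and 678 units with NF1 RNAi + U0126, against 658, 489 and 459 with NF1 RNAi, with no overlap (0.57 ± 0.19, adjusted p = 0.0844, and 0.000743 with the block).

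Other genes of the ATF4 arm were higher without passing the threshold. Chac1 had 372, 211 and 205 units with NF1 RNAi + U0126, against 155, 196 and 171 with NF1 RNAi (0.54 ± 0.21, adjusted p = 0.13). Psat1 had 756, 664 and 442 units with NF1 RNAi + U0126, against 315, 398 and 405 with NF1 RNAi (0.71 ± 0.26, adjusted p = 0.114, and 0.0394 without the replicate 1 array of Control RNAi). Asns had 359, 242 and 145 units with NF1 RNAi + U0126, against 140, 183 and 146 with NF1 RNAi (0.58 ± 0.30, adjusted p = 0.257). The groups did not overlap in Chac1 and Psat1. For Asns 2 of the inhibitor arrays were above and 1 within the range of the NF1 RNAi arrays, so the groups overlapped. Atf4 had 2954, 2250 and 2094 units with NF1 RNAi + U0126, against 1877, 2109 and 1966 with NF1 RNAi, and overlapped too (0.28 ± 0.13, adjusted p = 0.218). The replicate 1 array of the inhibitor group was the highest of its group for Chac1, Psat1, Asns and Atf4.

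The rest of the ATF4 arm did not pass the threshold in the main fit. Mthfd2 differed by 0.46 ± 0.19 (adjusted p = 0.163), Cebpb by 0.44 ± 0.26 (adjusted p = 0.329) and Shmt2 by 0.17 ± 0.10 (adjusted p = 0.305). Atf5, Psph, Trib3, Aldh18a1, Ddit3 and Phgdh lay between −0.15 and 0.15, with adjusted p-values of 0.479 to 0.924. For Phgdh the value rested on NF1 RNAi replicate 1, since the difference was −0.46 without that array (adjusted p = 0.0657) and −0.44, past the threshold, without replicate 1 of all 3 groups (adjusted p = 0.0102). Cebpg, by contrast, was lower at 351, 399 and 428 units with NF1 RNAi + U0126, against 406, 599 and 628 with NF1 RNAi (−0.45 ± 0.19, adjusted p = 0.163, and 0.00905 with the block). Ddit4 differed by −0.37 ± 0.25 (adjusted p = 0.396). Without replicate 1 of all 3 groups, Ddit4 (−0.46, adjusted p = 0.049) and Cebpb (0.66, adjusted p = 0.0222) were called too. Mthfd2 was called without NF1 RNAi + U0126 replicate 3 (0.67, adjusted p = 0.0415).

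With the inhibitor 14 of the 17 ER folding genes had differences below 0, as did 6193 of all 14213 genes. None of these 14 passed the threshold without the block. Hspa5 had 3741, 2785 and 2650 units with NF1 RNAi + U0126, against 4404, 3881 and 4207 with NF1 RNAi. The groups did not overlap, and the difference was −0.46 ± 0.15 (adjusted p = 0.0845, and 0.0109 with the block). Pdia6 had 2408, 2087 and 1964 units with NF1 RNAi + U0126, against 2823, 2712 and 2661 with NF1 RNAi (−0.35 ± 0.15, adjusted p = 0.181). Calr had 2363, 2023 and 1861 units with NF1 RNAi + U0126, against 2831, 2592 and 2644 with NF1 RNAi (−0.37 ± 0.15, adjusted p = 0.147, and 0.0368 with the block). Neither Pdia6 nor Calr overlapped between the groups, nor did Edem1 (−0.11 ± 0.05, adjusted p = 0.209). The other probe sets of Edem1 gave −0.26 and −0.36 (adjusted p = 0.0215 and 0.0142 among all probe sets), and the mean of its probe sets was called at −0.25 (adjusted p = 0.0167). Of the 37 genes 12 had groups without overlap, 7 higher and 5 lower, where the share over all genes was 33.9% (17.8% higher and 16.1% lower).

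With the replicate block Hsp90b1, Dnajb9 and Dnajc3 were also called lower, at −0.35 (adjusted p = 0.0191), −0.28 (adjusted p = 0.0363) and −0.27 (adjusted p = 0.0372), whereas without it their adjusted p-values were 0.489, 0.256 and 0.467. Pdia3, Pdia4, Canx, Dnajb11, Hyou1, Sdf2l1, Creld2, Manf and Sel1l lay between −0.23 for Creld2 and 0.16 for Sdf2l1, with adjusted p-values of 0.292 to 0.989. Xbp1 had 1681, 1614 and 1632 units with NF1 RNAi + U0126, against 1880, 1937 and 1825 with NF1 RNAi, with no overlap (−0.20 ± 0.07, adjusted p = 0.0991). Atf6 differed by 0.04 ± 0.06 (adjusted p = 0.765) and Eif2ak3 by 0.10 ± 0.07 (adjusted p = 0.357).

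Against Control RNAi, both arms had median differences below 0 in cells with the knockdown and the inhibitor. In NF1 RNAi + U0126 against Control RNAi cells, 7 ER folding genes fell and 1 rose, and 9 ATF4 arm genes fell and none rose. Over all genes 35.5% were called, 17.6% lower and 17.9% higher, with a median difference of 0.04. The medians were −0.36 for the ER folding genes and −0.51 for the ATF4 arm. Of all 37 measured genes 17 fell and 1 rose. The groups did not overlap in 16 genes that were lower and 2 that were higher with NF1 RNAi + U0126, against 21.7% and 25.5% of all genes (47.2% in either direction).

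Among the ER genes Pdia6 fell most, followed by Pdia4 and Hspa5, which encodes BiP. Pdia6 had 2408, 2087 and 1964 units with NF1 RNAi + U0126, against 5878, 3893 and 3902 with Control RNAi, a fall of 2.08-fold (−1.06 ± 0.15, adjusted p = 0.000724). Hspa5 had 3741, 2785 and 2650 units with NF1 RNAi + U0126, against 6536, 4658 and 5156 with Control RNAi, a fall of 1.78-fold (−0.84 ± 0.15, adjusted p = 0.00275). In neither gene did the groups overlap. Calr, Pdia4, Creld2, Canx and Manf fell too, by 1.68-fold, 1.82-fold, 1.73-fold, 1.33-fold and 1.29-fold, with adjusted p-values of 0.00429 to 0.0461. The other probe sets of Canx gave −0.15 and −0.18 and were not called (adjusted p = 0.235 and 0.0763 among all probe sets). Edem1 rose by 0.19 ± 0.05 (adjusted p = 0.0205), but its 2 other probe sets gave 0.05 and −0.21, and the mean of its probe sets gave 0.01 (adjusted p = 0.885). Creld2 was not called under several alternatives either (adjusted p = 0.0521 with a pseudocount of 16, 0.0546 with quantile normalization, 0.0878 with only the 2 groups and 0.061 with an intensity trend), nor was Manf with only the 2 groups (adjusted p = 0.0511). Creld2, Manf and Edem1 each lost their call without the NF1 RNAi + U0126 replicate 2 array and without some others, with adjusted p-values of up to 0.144, 0.0914 and 0.067, so 5 of the 17 were called without that array. Without the Control RNAi replicate 1 array the median of the ER folding genes was −0.12.

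The uncalled ER genes of this comparison included Herpud1, at 873, 704 and 724 units with NF1 RNAi + U0126, against 758, 669 and 733 with Control RNAi, where the groups overlapped (0.09 ± 0.09, adjusted p = 0.512). Hsp90b1 had 4468, 2772 and 2469 units with NF1 RNAi + U0126, against 6808, 3871 and 4234 with Control RNAi (−0.62 ± 0.28, adjusted p = 0.118, and 0.000568 with the block). The block also called Dnajb11 (−0.18, adjusted p = 0.0343), Dnajc3 (−0.26, adjusted p = 0.0221) and Hyou1 (−0.30, adjusted p = 0.0316). Pdia3, Dnajb9, Sdf2l1 and Sel1l were not called, at −0.13, 0.09, −0.37 and −0.02, with adjusted p-values of 0.259 to 0.877. The other probe set of Pdia3 gave −0.997 (adjusted p = 0.000352 among all probe sets), and the mean of both was called at −0.56 (adjusted p = 0.00171). Xbp1 had 1681, 1614 and 1632 units with NF1 RNAi + U0126, against 2932, 2497 and 2625 with Control RNAi. Its fall of 1.63-fold had the lowest adjusted p of the 37 genes in this comparison (−0.71 ± 0.07, adjusted p = 8.5e-05). Atf6 differed by 0.18 ± 0.06 (adjusted p = 0.0588, and 0.0389 with the block) and Eif2ak3 by 0.06 ± 0.07 (adjusted p = 0.537).

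In the ATF4 arm Asns again differed most, with 359, 242 and 145 units with NF1 RNAi + U0126, against 991, 626 and 674 with Control RNAi. It was 3.2-fold lower, with no overlap (−1.68 ± 0.30, adjusted p = 0.00241). Phgdh had 791, 868 and 797 units with NF1 RNAi + U0126, against 1841, 1315 and 1468 with Control RNAi (−0.90 ± 0.23, adjusted p = 0.0152). Shmt2, Cebpg, Aldh18a1, Chac1, Mthfd2, Atf5 and Atf4 also fell, with log2 differences of −0.84, −0.78, −0.71, −0.67, −0.64, −0.59 and −0.51 and adjusted p-values of 0.000219 to 0.0337. Atf4, Chac1 and Mthfd2 lost their call without the Control RNAi replicate 3, or the NF1 RNAi + U0126 replicate 2 or 3 array, with adjusted p-values of up to 0.0592, 0.118 and 0.0846, Chac1 and Mthfd2 also without Control RNAi replicate 1, and Chac1 also without Control RNAi replicate 2 or NF1 RNAi replicate 3. With only the 2 groups in the fit the adjusted p was 0.0688 for Chac1 and 0.0632 for Mthfd2. Vldlr had 1143, 647 and 768 units with NF1 RNAi + U0126, against 1107, 911 and 884 with Control RNAi, which overlapped (−0.22 ± 0.22, adjusted p = 0.491). Its other probe sets disagreed here, with −0.21, −0.21 and −0.80, the last at an adjusted p = 0.00042 among all probe sets. Psat1, Psph, Trib3, Ddit3, Ddit4, Cebpb and Sesn2 were not called either, at −0.36, −0.07, −0.29, 0.01, 0.05, 0.39 and 0.26, with adjusted p-values of 0.178 to 0.941, and of these Sesn2 was called with the block (adjusted p = 0.00894) and Trib3 with the mean of its probe sets (−0.51, adjusted p = 0.0442).

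The arms can also be set side by side in each array. The median deviation of the 17 ATF4 arm genes from their means over the 9 arrays was 0.22, −0.17 and −0.29 log2 units with NF1 RNAi + U0126, −0.40, −0.22 and −0.32 with NF1 RNAi, and 0.47, 0.35 and 0.44 with Control RNAi. All Control RNAi arrays were thus above all arrays of the other groups. For the 17 ER folding genes it was 0.06, −0.25 and −0.37 with NF1 RNAi + U0126, 0.12, −0.07 and −0.16 with NF1 RNAi, and 0.46, −0.01 and 0.11 with Control RNAi. Here the 3 groups overlapped one another, and replicate 1 was the highest array of each. Within each replicate number, however, NF1 RNAi + U0126 was below NF1 RNAi, and NF1 RNAi was below Control RNAi. The ATF4 arm minus the ER arm was 0.15, 0.08 and 0.08 with NF1 RNAi + U0126, −0.52, −0.15 and −0.16 with NF1 RNAi, and 0.02, 0.37 and 0.32 with Control RNAi. It was below 0 in the NF1 RNAi arrays and above 0 in the other 6. The arms were chosen with results of these arrays known, so these medians are given with no test.

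**Figure D4:**
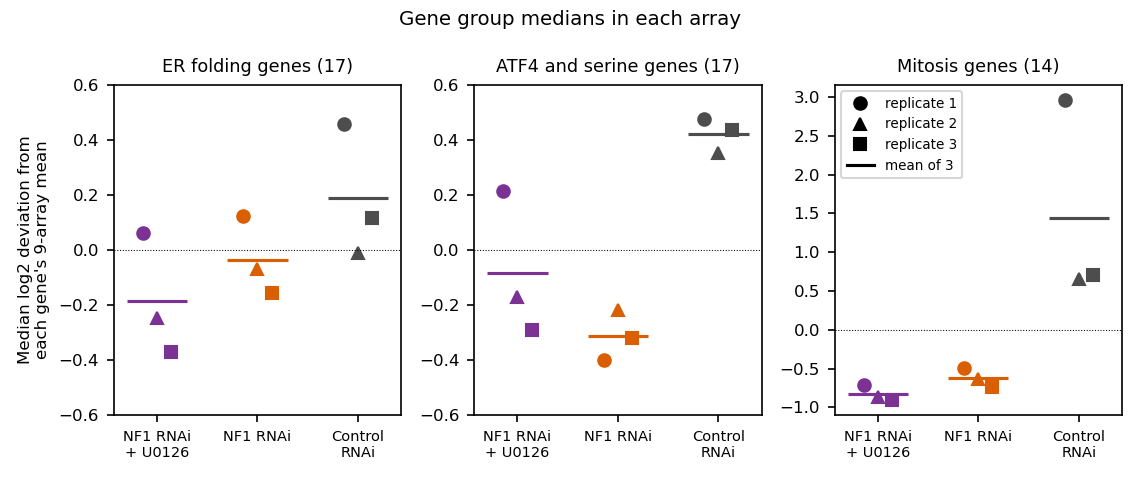
Points give the median log2 deviation of 17 ER folding genes, 17 ATF4 and serine genes and 14 mitosis genes in each array from the genes' means over the 9 arrays, with 1 symbol per replicate number and a bar at the mean of 3 arrays. In the ATF4 arm the Control RNAi arrays lay above all arrays of both other groups, in the ER arm the groups overlapped but kept 1 order within each replicate number, and the mitosis genes were highest in the replicate 1 array of Control RNAi at 2.97.

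Mitosis genes were lower in knockdown cells as well. Of 14 such genes, 9 fell in NF1 RNAi against Control RNAi cells, with a median of −1.99, where 13.3% of all genes fell. Between NF1 RNAi + U0126 and NF1 RNAi cells 0 were called, where 13.7% of all genes were. There limma also gave 0 of them at an unadjusted p under 0.05, against 3870 of all 14213 genes. In NF1 RNAi + U0126 against Control RNAi cells 11 fell, where 17.6% of all genes fell. Their part in the lower ATF4 arm was not tested. Leaving out the replicate 1 array of all 3 groups left the median of the ATF4 arm at −0.55 in NF1 RNAi against Control RNAi cells. The mitosis medians still differed in the arrays kept, at −0.64 and −0.73 with NF1 RNAi and 0.65 and 0.70 with Control RNAi. That step therefore does not separate the mitosis genes from the ATF4 arm.

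Related genes outside the 38 were listed by the same functions, and over all genes 13.3% fell and 13.0% rose (26.3% called) in NF1 RNAi against Control RNAi cells. Of 24 other genes of the integrated stress response and amino acid transport, 7 fell and 3 rose in that comparison. The largest falls were in Slc7a11, the cystine importer (−2.86 ± 0.59, adjusted p = 0.00742), Nupr1, a stress-induced chromatin protein (−2.25 ± 0.26), Eif4ebp1, the translation repressor 4E-BP (−1.92 ± 0.08), and Slc7a1, an importer of cationic amino acids (−1.64 ± 0.22). Of 18 tRNA synthetases measured, 9 fell and none rose, led by those for isoleucine (Iars1, −1.92 ± 0.11), tyrosine (Yars1, −1.12 ± 0.07), cysteine (Cars1, −0.97 ± 0.14) and glycine (Gars1, −0.55 ± 0.08). Of 19 other amino acid and one-carbon genes, 6 fell and none rose, among them the mitochondrial folate enzymes Aldh1l2 (−1.49 ± 0.37) and Mthfd1l (−0.88 ± 0.20), Ahcy of the methionine cycle (−0.60 ± 0.10) and the alanine transaminase Gpt2 (−0.51 ± 0.09). Of 49 other ER folding and degradation genes, 14 fell and 3 rose, with a median of −0.17, led by the retrieval receptor Kdelr3 (−1.70 ± 0.12), the oxidoreductases Pdia5 (−1.15 ± 0.20) and Txndc5 (−0.87 ± 0.16) and the translocon subunit Sec61a1 (−0.85 ± 0.08).

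With U0126 added to the knockdown, 4 of 24, 2 of 18, 1 of 19 and 6 of 49 genes of these lists were called, where the share over all genes was 13.7%. Of the 24 stress response and transport genes, 3 rose and 1 fell in NF1 RNAi + U0126 against NF1 RNAi cells. They were Gadd45a, a growth arrest gene (1.10 ± 0.16, adjusted p = 0.00257), Slc3a2, the heavy chain of several amino acid transporters (0.48 ± 0.09), Fgf21, a stress-induced hormone (0.25 ± 0.06), and Slc1a5, a glutamine transporter, which fell (−0.47 ± 0.09). Of the tRNA synthetases Qars1 (1.06 ± 0.13) and Aars1 (0.37 ± 0.07) rose, and of the amino acid genes Mat2a, which makes S-adenosylmethionine, rose (0.55 ± 0.08). Of the 49 ER genes 6 fell and none rose, led by Hspa13, an HSP70 family member (−0.47 ± 0.07), Mbtps1, the protease that activates ATF6 (−0.38 ± 0.08), the oxidase Ero1b (−0.33 ± 0.06) and Sec63 of the translocon (−0.29 ± 0.07). In NF1 RNAi + U0126 against Control RNAi cells the counts lower and higher were 8 and 6 of 24, 12 and 2 of 18, 5 and 2 of 19, and 21 and 3 of 49 in lists of stress response, tRNA synthetase, amino acid and ER genes, where 17.6% of all genes were lower and 17.9% higher.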

How the data were processed

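Total RNA from 9 cultures was hybridised to Affymetrix expression arrays. The authors deposited normalized intensity values on a linear scale, with RMA named in the submitters' processing notes, and array medians lay within 6.58 to 6.61 after log2. No software version is recorded in the labels. Of 31099 probe sets, 57 controls were left out, 20826 were annotated to 1 gene, 436 to several, and 9780 were unnamed here. Symbols were updated through the RefSeq GRCr8 gene table (20758 by gene ID), which left 14213 genes, 4526 of them with more than 1 probe set. Each gene was represented by its single-gene probe set of highest mean. All 37 measured genes were at log2 6 or more in at least 3 arrays, and no filter on low values was used.

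Values were fitted as log2(value + 1) with the R package limma (version 3.58.1, R 4.3.3), using lmFit and eBayes on 3 group means (6 residual degrees of freedom), with Benjamini-Hochberg adjustment over all genes and a threshold of 0.05. A value or fold is on that scale. The labels call the replicates independent but do not say what a replicate number marks. Same-numbered arrays of different groups deviated together from their group means (9 pairs, r = 0.17 to 0.62, against −0.52 to 0.40 in 18 pairs of different number), so the replicate block was fitted as well, with 4 residual degrees of freedom. Alternatives were the block, no pseudocount or a pseudocount of 16, a filter on dim genes, median centring, quantile normalization, the 2 compared groups only, a variance trend, the mean of probe sets, and leaving out each array or the replicate 1 arrays. The fit was also run on simulated arrays with independent noise. They lacked the shared shift of the replicate 1 arrays, so that run says nothing on how the shift affects the calls. Every measured gene of the 38 is named, and up to 4 called genes of each other list by size of difference. The members, the lists and these rules were chosen with earlier results of these data known. Promoters were searched with Python 3.11.15, and tables and plots used pandas 2.3.3 and matplotlib 3.10.9.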

Additional observations from a re-analysis of the deposited data

How the results depend on the processing

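The arm medians kept their sign under every alternative run, and most counts stayed within 1.5 times their value. Those that moved further concerned mainly the replicate block and the replicate 1 arrays, and the cause was not tested. In NF1 RNAi against Control RNAi cells, the 15 calls among the 37 genes became 24 with the replicate block (14 shared) and 23 without replicate 1 of all 3 groups (15 shared), and the 4 calls among ER folding genes became 11 and 9. The ATF4 arm had 12 calls with the block, against 10 without it, and its median was −0.55 without replicate 1 of all 3 groups, against −0.74. In NF1 RNAi + U0126 against NF1 RNAi cells, the 2 calls, both higher, became 9 with the block (3 higher and 6 lower), 4 with only those groups in the fit and 13 without replicate 1 (4 higher and 9 lower), the 1 ER call became 6, 3 and 7 (2 with the mean of probe sets), and the 1 ATF4 call became 3 with the block and 6 without replicate 1. The block changed no other call of a member than those given beside the results. Over all genes it gave 4547 calls for NF1 RNAi against Control RNAi, 2790 for NF1 RNAi + U0126 against NF1 RNAi and 5793 for NF1 RNAi + U0126 against Control RNAi, against 3734, 1951 and 5047 without it. The members' counts with the block thus stand beside higher counts over all genes. No count over all genes is given without replicate 1 of all 3 groups.

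Leaving out 1 array at a time gave, for NF1 RNAi against Control RNAi, 2790 to 3755 calls over all genes, 13 to 15 among the 37, 3 to 5 among ER genes and 8 to 10 in the ATF4 arm. For NF1 RNAi + U0126 against NF1 RNAi the ranges were 1110 (without NF1 RNAi replicate 2; 1226 without NF1 RNAi + U0126 replicate 2) to 2587, 1 to 8, 0 to 4 and 1 to 3. For NF1 RNAi + U0126 against Control RNAi they were 4107 to 5089, 12 to 19, 5 to 8 and 6 to 10. Arm medians ranged from −0.41 to −0.11, −0.32 to −0.06 and −0.46 to −0.12 for ER genes, and from −0.83 to −0.61, 0.14 to 0.26 and −0.61 to −0.41 for the ATF4 arm, in the same order of comparisons. Of the called members, 3 of 15, 1 of 2 and 6 of 18 lost their call at least once. With 3 arrays per group, small differences of single genes could not be told from the spread, and p-values measure only the spread between these arrays.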

Other observations

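Chaperones of other compartments were listed as well. Of 15 cytosolic heat shock genes measured, 3 fell and 2 rose in NF1 RNAi against Control RNAi cells, where 26.3% of all genes were called, with a median of −0.03. Those that fell were the small heat shock protein gene Hspb1 (−2.22 ± 0.20, adjusted p = 0.00011), the co-chaperone Dnajb1 (−0.75 ± 0.13, adjusted p = 0.00365) and the inducible HSP70 gene Hspa1a (−0.65 ± 0.16, adjusted p = 0.0176), while Hsph1, an exchange factor of HSP70, rose (0.67 ± 0.07, adjusted p = 0.000332). In NF1 RNAi + U0126 against NF1 RNAi cells, where 13.7% of all genes were called, 1 rose and 1 fell, Cryab (0.57 ± 0.15, adjusted p = 0.0322) and Hsph1 (−0.26 ± 0.07, adjusted p = 0.0495). In NF1 RNAi + U0126 against Control RNAi cells, where 35.5% of all genes were called, 4 rose and 3 fell, among them Bag3 (0.78 ± 0.07) and Hspb1 (−2.13 ± 0.20).

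Against the same shares over all genes, of 6 mitochondrial chaperones and proteases Hspd1 rose in NF1 RNAi against Control RNAi cells (0.25 ± 0.07, adjusted p = 0.0272) and Clpp rose in NF1 RNAi + U0126 against Control RNAi cells (0.25 ± 0.06, adjusted p = 0.00753). Between NF1 RNAi + U0126 and NF1 RNAi cells limma called 0 of the 6, with 1 at an unadjusted p under 0.05, as were 3870 of all 14213 genes.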
